A study of Oryza sativa Indica Group with 27 samples.

Results

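Seedlings of the rice cultivar Pokkali, before any salt was added, already held higher transcript levels than 2 other cultivars of 104 genes that were higher there after salt. The 104 genes are those of 17905 on the array whose mean level in unstressed Pokkali was at least 1 log2 unit (2-fold) above both unstressed Nonabokra and unstressed IR29, and whose mean level after 3 h of salt was at least 1 log2 unit above the own control in both Nonabokra and IR29. Of 394 genes with the first property and 672 with the second, 123 had both. The 19 of these that belong to the RAB16, dehydrin, late embryogenesis abundant, EM, protein phosphatase 2C, heat shock protein and heat shock factor families were left out by definition. The genes were thus chosen by measured control and 3 h levels, and these are given below as a description, without a test.

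The samples are whole 7-day-old seedlings of Pokkali, Nonabokra and IR29, grown hydroponically and moved into 200 mM sodium chloride for 3 h or 6 h. Control seedlings stood in growth medium for 6 h, so the 3 h groups have no control of their own duration. RNA of 3 biological replicates per group was hybridised to 27 Affymetrix rice arrays, which gives the 9 groups Pokkali control, 3 h and 6 h, Nonabokra control, 3 h and 6 h, and IR29 control, 3 h and 6 h. As background, Pokkali and Nonabokra are traditional salt-tolerant cultivars and IR29 is a salt-sensitive one. One label of the 3 h samples mentions drought, whereas their titles, characteristics and treatment text give salt. Levels are the authors' linear intensities, and differences are on the scale of log2(intensity + 16), which understates differences of dim transcripts. In these whole seedlings, fewer cells of a type and less RNA per cell cannot be told apart.

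Abscisic acid is the hormone through which plants answer drought and salt. Receptors that bind it hold back protein phosphatases 2C, which frees SnRK2 kinases, and these phosphorylate bZIP factors that switch on genes for protective proteins, further regulators and the enzymes that break the hormone down. Carotenoids are its precursors. In leaves and roots of unstressed plants most of the downstream genes are known to be weakly transcribed.

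Of the 104 members, 18 have an informative gene name, and the other 86 carry only a locus number, to which no name or function is given here. Some of these 86 may belong to a family that was to be left out. The named members cover carotenoid and hormone metabolism (PSY3, ABA8OX2, ACO1), signalling (SAPK6), transcription factors and a zinc finger protein (BZIP23, HOX22, HOX24, MADS26, C3H35), membrane and lipid proteins (PM19L1, LTI6B, LTP-2), cell wall and phenylpropanoid proteins (PMEI8, 4CL5), thiol-based redox proteins (R1C-Prx, Nrx2), a protease-like plastid protein (EGY3) and a subunit of pyruvate dehydrogenase (PDHE1-A). The members lie scattered in the genome: none of the 104 were neighbours in the reference gene order, and 2 pairs lay within 5 genes of each other. For 7 members the probe set is of a kind that can also bind related transcripts, ABA8OX2 and Nrx2 among them. Other probe sets existed for 14 members: of these 16 probe sets 2 met all 4 conditions, 10 had all 4 differences above 0, and 6 had at least one at or below 0, with 4 of the 16 dim in every group. The second probe set of LTI6B and both others of C3H35 had all 4 differences above 0, and that of PM19L1 did not.

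A few arrays stood apart from the other arrays of their group. Correlations across probe sets with those arrays were 0.9965 and 0.9964 for replicate 1 of Nonabokra at 6 h, 0.9957 and 0.9959 for replicate 1 of IR29 at 6 h, and 0.9957 and 0.9971 for replicate 3 of the Nonabokra control, against 0.9976 or more for all other pairs. The median intensity of an array over all probe sets, on the linear scale, lay between 7.09 and 7.77. Poly-A spikes, added before labelling, were lower at 6 h: their mean log2 level in Pokkali was 9.59 to 9.93 in controls, 9.46 to 9.60 after 3 h and 8.28 to 8.33 after 6 h, and it was 7.41 to 8.33 in Nonabokra and 7.65 to 8.46 in IR29 at 6 h. The summed intensity of 4 root markers (IRT1, CASP1, NIP2-1, LSI2) was lower in unstressed Pokkali (4882 to 5069) than in unstressed Nonabokra (7539 to 8405) and IR29 (8940.3 to 9883). Under salt it was 1203 to 1416 at 3 h and 2636 to 2840 at 6 h in Pokkali, 2035 to 2168 and 4871 to 5433 in Nonabokra, and 558 to 622 and 1781 to 2264 in IR29. NIP2-1 and LSI2 make up most of this sum, and the dimmer markers were higher in unstressed Pokkali than in unstressed Nonabokra: CASP1 averaged 132 in unstressed Pokkali, 11.2 in unstressed Nonabokra and 129.9 in unstressed IR29, and IRT1 35.8, 12.3 and 512. The median log2 difference of the 4 root markers was 0.15 between unstressed Pokkali and Nonabokra (range -0.79 to 2.45) and -0.81 between unstressed Pokkali and IR29 (range -3.35 to 0.02). The 4 of 6 leaf markers that were measured summed to 64876 to 81237 over all arrays, with RBCS1 under 20 in every group. The 5 measured of 8 seed markers summed to 1177 to 1800.5, with GLUA1, PROLAMIN and VP1 under 20 in every group. Log2 ratios of 5' to 3' control probe sets are a further sign of RNA handling. For actin their group medians at control, 3 h and 6 h were -2.16, -2.95 and -2.88 in Pokkali. They were -2.23, -2.44 and -2.60 in Nonabokra and -2.59, -3.33 and -2.74 in IR29. Group medians for Gapdh lay between -2.16 and -1.80, for Cyph between -1.36 and -1.02 and for ubiquitin between -0.10 and 0.14. The part of these markers, spikes and ratios in the results was not tested, nor were sequence differences between cultivars at the probes.

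The median level of the 104 members was 8.80 on the log2 scale in unstressed Pokkali, against 7.09 in unstressed Nonabokra and 6.64 in unstressed IR29. After 3 h of salt the median was 9.91 in Pokkali, 9.99 in Nonabokra and 8.73 in IR29, and after 6 h it was 9.35, 8.80 and 8.67. The median of unstressed Pokkali was thus below that of Nonabokra at 3 h, equal to that of Nonabokra at 6 h to 2 decimals, and slightly above those of salted IR29. Array medians within a group differed little: they lay at 8.78 to 8.87 in the Pokkali controls, 7.05 to 7.06 in the Nonabokra controls and 6.53 to 6.63 in the IR29 controls. The smaller of the 2 leads of unstressed Pokkali had a median of 1.49 over members and reached 5.40. It was at least 2 in 27 members and at least 4 in 8, among them PM19L1 and ACO1. Over all genes, 3.3% were at least 1 higher in unstressed Pokkali than in unstressed Nonabokra, and 5.2% than in unstressed IR29, while 7.63% were at least 1 higher after 3 h of salt in Nonabokra and 5.96% in IR29.

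**Figure D1:**
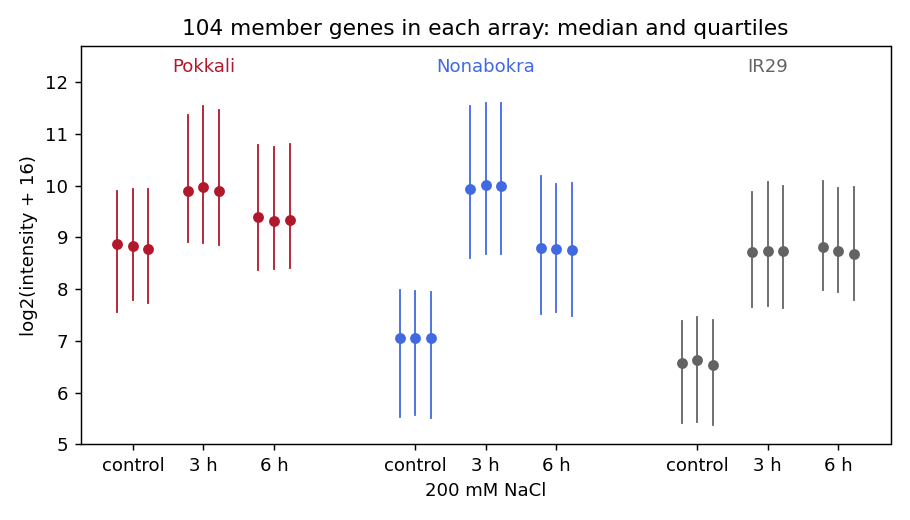
Median (points) and quartiles (lines) of log2(intensity + 16) of the 104 members in each of the 27 arrays, 3 per group, by cultivar and hours of 200 mM sodium chloride. The medians are 8.80, 9.91 and 9.35 in Pokkali, 7.09, 9.99 and 8.80 in Nonabokra and 6.64, 8.73 and 8.67 in IR29 (control, 3 h, 6 h). The controls and the 3 h groups of Nonabokra and IR29 were used to choose the genes.

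Set against the salted seedlings of the other cultivars, unstressed Pokkali was closer to IR29 than to Nonabokra at 3 h. Its level was at or above that of Nonabokra after 3 h of salt in 15 members and below it in 89, with a median difference of -0.98. Against IR29 at 3 h it was at or above in 47 members and below in 57, with a median of -0.04. The lead of unstressed Pokkali equalled a median of 65.5% of the 3 h difference of Nonabokra (quartiles 48.5% and 84.1%) and 97.6% of that of IR29 (quartiles 74.5% and 127%). In 12 members unstressed Pokkali was at or above both salted groups, among them ACO1, 4CL5, MADS26 and LOC4336355. A further count concerns brightness: 12 members had an intensity under 20 in both other controls, so their lead is over dim readings.

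**Figure D2:**
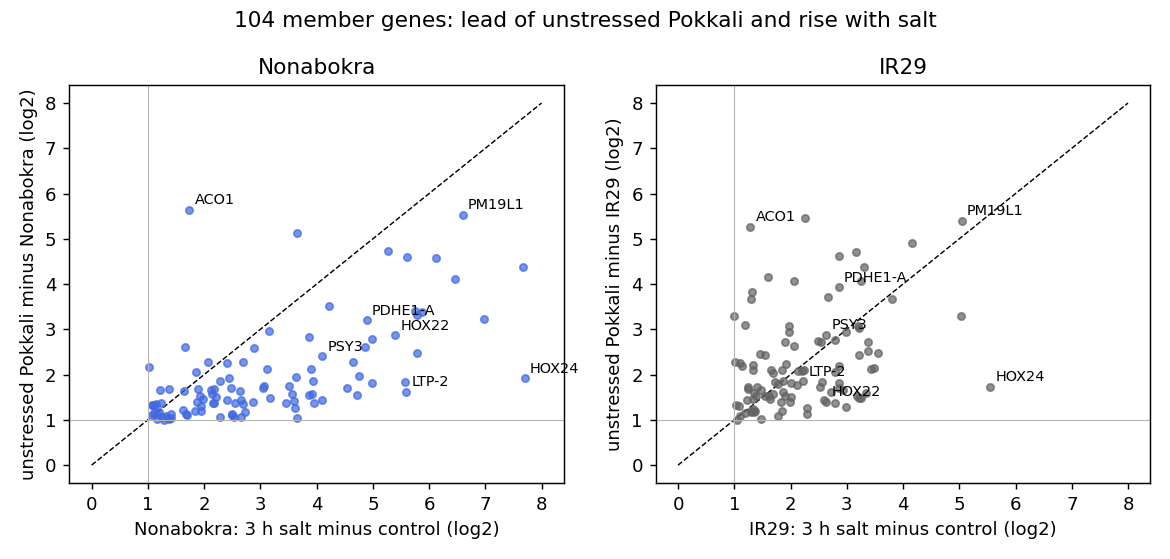
Each point is 1 of the 104 members, with the 3 h level of Nonabokra or of IR29 minus its own control on the x axis and the lead of unstressed Pokkali over that cultivar's control on the y axis, both as differences of group means of log2(intensity + 16). Grey lines mark the limit of 1 that chose the genes, and points on the dashed line have equal values on both axes. HOX24 lies far below the line in both panels and ACO1 above it.

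The members nearest to the limit were LTI6B, LOC4324077 and LOC4349160, whose smallest difference was 1.001, 1.002 and 1.009. Just outside were LOC4333418, LOC4345923 and HOX6, a homeodomain-leucine zipper factor, at 0.999, 0.995 and 0.994. The set depends on the constant added before the log: with 64 in place of 16 it held 56 genes, all of them members, and with 1 it held 142.

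Hormone metabolism is represented by PSY3 and ABA8OX2. PSY3, a phytoene synthase that feeds the carotenoid precursors of the hormone, read 948, 1034 and 1144 in unstressed Pokkali, 2277, 2327 and 2044 after 3 h and 985, 1073 and 910.2 after 6 h. Nonabokra read 181, 178 and 188 unstressed, 3615, 3115 and 3432 after 3 h and 869.9, 809.9 and 814 after 6 h, and IR29 136, 128 and 116 unstressed, 914, 834 and 867 after 3 h and 745, 775 and 847 after 6 h. The 6 h and control arrays of Pokkali overlapped, while in both other cultivars all 6 h arrays lay above the controls. From 3 h to 6 h PSY3 fell in Pokkali (-1.15 ± 0.08, adjusted p = 6.1e-10, limma). At 6 h Pokkali was higher than IR29 (0.32 ± 0.08, adjusted p = 0.0032), and its lead over Nonabokra (0.24 ± 0.08, adjusted p = 0.027) did not pass without replicate 1 or 2 of Pokkali or replicate 2 or 3 of Nonabokra (adjusted p up to 0.16).

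ABA8OX2, an abscisic acid 8'-hydroxylase that starts the breakdown of the hormone, had 478, 480.2 and 469 in unstressed Pokkali, 1406, 1431 and 1426 after 3 h and 530.4, 500.0 and 519 after 6 h. Intensities in Nonabokra were 123, 129 and 140.1 unstressed, 1328, 1160.3 and 1167 after 3 h and 734, 706 and 682 after 6 h, and in IR29 183, 177 and 153 unstressed, 679, 604 and 661 after 3 h and 409, 378 and 361 after 6 h. At 6 h the 3 cultivars did not overlap, with Nonabokra highest and IR29 lowest. Pokkali was lower at 6 h than at 3 h (-1.43 ± 0.06, adjusted p = 1.7e-12), lower than Nonabokra at 6 h (-0.44 ± 0.06, adjusted p = 1.9e-05) and higher than IR29 (0.42 ± 0.06, adjusted p = 2.6e-05).

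SAPK6 is an SnRK2 kinase, a class that carries the signal from the phosphatases to transcription factors. Its arrays gave 782, 766 and 679 unstressed, 919, 991 and 884 after 3 h and 886, 1014 and 961 after 6 h in Pokkali. They gave 358, 359 and 351 unstressed, 908, 953 and 1004 after 3 h and 591, 682 and 747 after 6 h in Nonabokra, and 197, 217 and 219 unstressed, 578, 556 and 612 after 3 h and 494, 523 and 529.9 after 6 h in IR29. The difference between 6 h and 3 h in Pokkali was 0.03 ± 0.07 and did not pass (adjusted p = 0.74). At 6 h Pokkali exceeded Nonabokra (0.50 ± 0.07, adjusted p = 2.7e-05) and IR29 (0.87 ± 0.07, adjusted p = 9.9e-09), with no overlap of arrays.

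BZIP23, a bZIP factor that in rice mediates responses to abscisic acid, salt and drought, read 2986, 3144 and 2884 in unstressed Pokkali, 3783, 4063 and 3689.7 after 3 h and 3875, 3989 and 3918 after 6 h. It read 1075, 919 and 1026 unstressed, 5002, 4322 and 4203 after 3 h and 2032, 2018 and 2031 after 6 h in Nonabokra, and 839, 841 and 838 unstressed, 3586, 3282 and 3375 after 3 h and 4138, 4023 and 3807 after 6 h in IR29. Pokkali and IR29 overlapped at 6 h (a difference of -0.02 ± 0.06, adjusted p = 0.79), and both lay above all Nonabokra arrays. Pokkali was higher than Nonabokra at 6 h by 0.95 ± 0.06, adjusted p = 1.5e-10, and the 6 h and 3 h arrays of Pokkali overlapped (0.03 ± 0.06, adjusted p = 0.7).

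HOX22 and HOX24, homeodomain-leucine zipper I factors that in rice respond to abscisic acid and drought, were bright at 6 h in Pokkali and IR29 and dimmer in Nonabokra. HOX22 read 348, 380.0 and 362 in unstressed Pokkali, 1594, 1682 and 1781 after 3 h and 2158, 1837 and 2019.7 after 6 h. Nonabokra gave 35.6, 37.2 and 35.1 unstressed, 2149.8, 2289 and 2081 after 3 h and 516, 434 and 478 after 6 h, and IR29 131, 115 and 138 unstressed, 858, 897 and 873 after 3 h and 1338, 1379 and 1461 after 6 h. HOX24 read 64.5, 75.6 and 61.1 unstressed, 2383, 2273 and 2417 after 3 h and 3610.4, 3608 and 3103 after 6 h in Pokkali. All 3 unstressed Pokkali arrays were far below the salted arrays of any cultivar. Nonabokra gave 5.82, 5.77 and 5.86 unstressed, 4215, 4656 and 4699.9 after 3 h and 534, 496 and 505 after 6 h, and IR29 10.2, 7.65 and 9.13 unstressed, 1157, 1166 and 1139 after 3 h and 1727, 2469 and 2103 after 6 h. At 6 h Pokkali was above Nonabokra for HOX22 (2.04 ± 0.07, adjusted p = 6e-15) and HOX24 (2.71 ± 0.09, adjusted p = 8.9e-15). Pokkali was also above IR29 for HOX22 (0.52 ± 0.07, adjusted p = 4.3e-06) and HOX24 (0.72 ± 0.09, adjusted p = 3.3e-06). Between 3 h and 6 h HOX24 rose in Pokkali (0.54 ± 0.09, adjusted p = 0.00016), and the rise of HOX22 (0.25 ± 0.07, adjusted p = 0.011) did not pass without replicate 1 of either group (adjusted p up to 0.07).

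**Figure D3:**
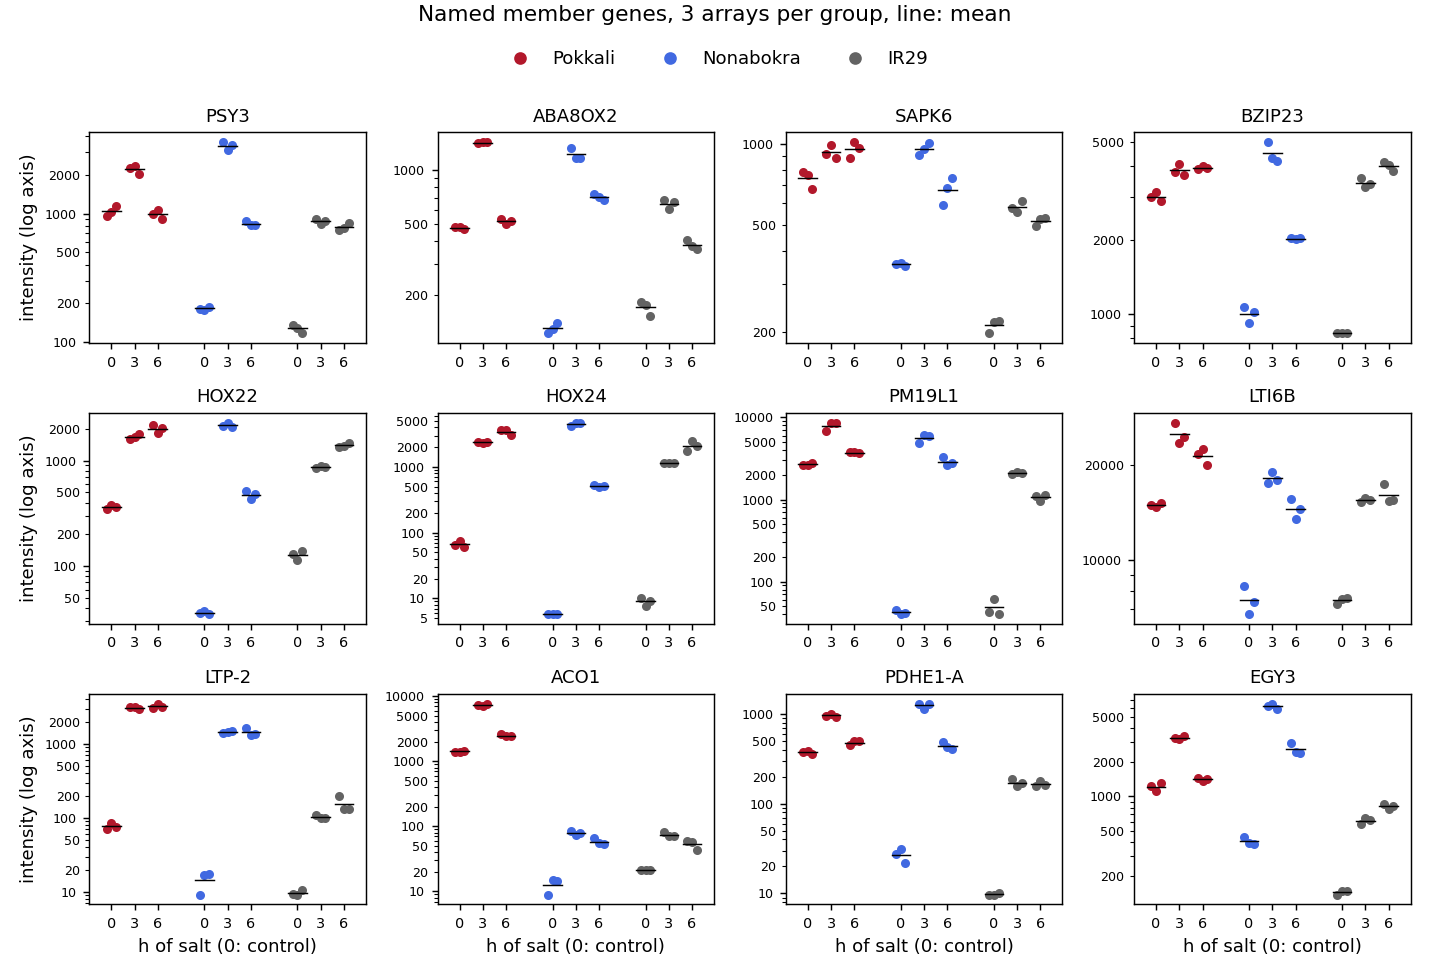
Intensity of 12 named members in every array (points, log axis) with the group mean (line), by hours of 200 mM sodium chloride (0 is the control), for Pokkali, Nonabokra and IR29. PM19L1 averaged 2678 in unstressed Pokkali, against 42.2 in unstressed Nonabokra and 48.6 in unstressed IR29, while HOX24 averaged 67.04, against 5.81 and 8.98.

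Of the other regulators, MADS26, a MADS-box factor linked in rice to stress responses, averaged 637 ± 14.8, 659 ± 28.95 and 409.8 ± 38.1 in Pokkali at control, 3 h and 6 h (SD, n = 3 here and below). It averaged 243 ± 29.1, 556 ± 22.4 and 351 ± 16.9 in Nonabokra, and 128 ± 14.8, 298 ± 16.4 and 280.1 ± 6.45 in IR29. In Pokkali MADS26 fell from 3 h to 6 h (-0.67 ± 0.08, adjusted p = 1.8e-06), and at 6 h it was above IR29 (0.52 ± 0.08, adjusted p = 2.8e-05) while the difference from Nonabokra was 0.21 ± 0.08, adjusted p = 0.07. C3H35, a CCCH zinc finger protein, averaged 971 ± 32.6, 2832 ± 231 and 1242 ± 14.4 in Pokkali. Nonabokra averaged 255 ± 27.5, 4120.4 ± 37.5 and 1167 ± 19.1, and IR29 333 ± 5.66, 1383 ± 40.5 and 1021 ± 41.6. C3H35 fell in Pokkali between the time points (-1.18 ± 0.06, adjusted p = 4.8e-12), and at 6 h it was above IR29 in Pokkali (0.28 ± 0.06, adjusted p = 0.00059), while the difference from Nonabokra was 0.09 ± 0.06, adjusted p = 0.36. Nonabokra was above IR29 at 6 h (0.19 ± 0.06, adjusted p = 0.015), a call that did not pass without replicate 1 of Nonabokra or replicate 2 of IR29 (adjusted p up to 0.078).

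PM19L1 had the largest of the 104 leads when the smaller lead over the 2 other controls is taken, 5.40. This plasma membrane protein of the AWPM-19 family is known in rice to promote abscisic acid uptake into cells. Its Pokkali arrays read 2619, 2619 and 2797 unstressed, 6744, 8437 and 8602 after 3 h and 3774, 3749 and 3675 after 6 h. Nonabokra read 44.9, 40.4 and 41.4 unstressed, 4922, 6092 and 5892 after 3 h and 3250.2, 2658 and 2771 after 6 h, and IR29 43.1, 62.1 and 40.6 unstressed, 2020.2, 2166 and 2088 after 3 h and 1112, 969 and 1143 after 6 h. Unstressed Pokkali thus exceeded IR29 at both salt times and overlapped the Nonabokra arrays at 6 h. From 3 h to 6 h PM19L1 fell in Pokkali (-1.07 ± 0.11, adjusted p = 4.2e-07). At 6 h Pokkali was above IR29 (1.78 ± 0.11, adjusted p = 1.2e-10), and the difference from Nonabokra (0.37 ± 0.11, adjusted p = 0.023) did not pass without replicate 1 or 2 of Pokkali or replicate 2 or 3 of Nonabokra (adjusted p up to 0.10).

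LTI6B, a small hydrophobic membrane protein induced by cold in rice, was bright everywhere. It averaged 14929.5 ± 212, 25023 ± 1959.7 and 21344 ± 1217 in Pokkali at control, 3 h and 6 h, 7467 ± 766, 18135 ± 749.8 and 14536 ± 1057 in Nonabokra, and 7455 ± 179, 15484 ± 199 and 16115 ± 1158 in IR29. Pokkali at 6 h was above Nonabokra (0.55 ± 0.07, adjusted p = 3.8e-06) and IR29 (0.41 ± 0.07, adjusted p = 0.00013). Its fall between 3 h and 6 h in Pokkali (-0.23 ± 0.07, adjusted p = 0.022) did not pass without replicate 1 at 3 h or replicate 3 at 6 h (adjusted p up to 0.10).

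LTP-2, a lipid transfer protein, separated the cultivars under salt. Pokkali arrays read 71.04, 85.3 and 76.2 unstressed, 3156, 3190.4 and 2954 after 3 h and 3060.3, 3524 and 3189 after 6 h. In Nonabokra they read 9.14, 17.00 and 17.4 unstressed, 1387, 1448 and 1489 after 3 h and 1659, 1339 and 1348 after 6 h, and in IR29 9.26, 9.21 and 10.6 unstressed, 109.8, 100.2 and 101 after 3 h and 199.6, 132 and 132 after 6 h. The unstressed level of Pokkali was low beside its own salted level, and all IR29 arrays were dimmer than any salted Nonabokra array. At 6 h Pokkali was above Nonabokra by 1.17 ± 0.12, adjusted p = 4.3e-07, and above IR29 by 4.28 ± 0.12, adjusted p = 4.9e-16. Replicate 1 was the highest IR29 array at 6 h.

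ACO1 was abundant in Pokkali alone at every time. The gene encodes 1-aminocyclopropane-1-carboxylate oxidase, which makes ethylene. Its intensity was 1403, 1392 and 1456 in unstressed Pokkali, 7320.3, 6954 and 7719 after 3 h and 2585, 2432 and 2411 after 6 h. In Nonabokra it was 8.87, 14.8 and 14.7 unstressed, 85.9, 74.2 and 78.3 after 3 h and 65.8, 54.6 and 54.1 after 6 h, and in IR29 21.1, 21.2 and 21.4 unstressed, 81.4, 70.4 and 72.1 after 3 h and 59.5, 57.2 and 42.9 after 6 h. All arrays of the other cultivars were at 85.9 or below, and all Pokkali arrays at 1392 or above. At 6 h the difference was 5.07 ± 0.09, adjusted p = 1.9e-19 against Nonabokra and 5.18 ± 0.09, adjusted p = 1e-19 against IR29, the largest among members in both comparisons. Between 3 h and 6 h ACO1 fell in Pokkali (-1.56 ± 0.09, adjusted p = 7.8e-11).

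Of the cell wall and phenylpropanoid members, PMEI8, a pectin methylesterase inhibitor, averaged 695 ± 10.4, 3698 ± 42.5 and 1944 ± 106 in Pokkali at control, 3 h and 6 h. Nonabokra averaged 166 ± 9.10, 4882 ± 121 and 2499 ± 99.1, and IR29 111 ± 5.09, 1486 ± 31.8 and 548 ± 36.8. At 6 h PMEI8 was lower in Pokkali than in Nonabokra (-0.36 ± 0.05, adjusted p = 5.1e-06) and higher than in IR29 (1.80 ± 0.05, adjusted p = 6.7e-17). 4CL5, a 4-coumarate-CoA ligase of phenylpropanoid and lignin synthesis, averaged 697 ± 20.9, 770.2 ± 35.02 and 1078 ± 93.96 in Pokkali. In Nonabokra it averaged 207 ± 19.5, 564 ± 19.9 and 575 ± 48.7, and in IR29 199 ± 6.39, 496 ± 21.7 and 560.4 ± 63.2. Unstressed Pokkali was above every salted array of the other cultivars. 4CL5 rose in Pokkali from 3 h to 6 h (0.47 ± 0.08, adjusted p = 0.00012), and at 6 h it was above Nonabokra (0.89 ± 0.08, adjusted p = 2.9e-08) and IR29 (0.93 ± 0.08, adjusted p = 1.1e-08).

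The redox members were dimmer at 6 h than at 3 h in Pokkali. R1C-Prx, a 1-Cys peroxiredoxin known from rice seeds, averaged 82.3 ± 2.49, 207 ± 23.2 and 95.9 ± 17.5 in Pokkali at control, 3 h and 6 h, 23.02 ± 8.27, 234 ± 13.3 and 88.03 ± 10.4 in Nonabokra and 19.6 ± 1.43, 73.97 ± 4.66 and 67.01 ± 4.999 in IR29. Nrx2, a nucleoredoxin, averaged 269.5 ± 5.75, 1558 ± 89.6 and 918 ± 46.6 in Pokkali, 81.9 ± 5.70, 2572 ± 137 and 776 ± 28.6 in Nonabokra and 52.9 ± 5.89, 459 ± 6.78 and 295 ± 16.4 in IR29. Both fell in Pokkali between the time points (R1C-Prx -1.001 ± 0.12, adjusted p = 2.5e-06, and Nrx2 -0.75 ± 0.06, adjusted p = 7.5e-09). At 6 h Nrx2 was above Nonabokra (0.24 ± 0.06, adjusted p = 0.0059) and IR29 (1.59 ± 0.06, adjusted p = 3e-14).

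EGY3, a protease-like protein of plastids, read 1229, 1118 and 1300.5 in unstressed Pokkali, 3217, 3162 and 3374 after 3 h and 1451, 1366 and 1421 after 6 h. It gave 439.8, 394 and 386 unstressed, 6133, 6509 and 5782 after 3 h and 2952, 2466 and 2396 after 6 h in Nonabokra, and 138, 148 and 149 unstressed, 569, 653 and 621 after 3 h and 855, 774 and 827 after 6 h in IR29. EGY3 was the named member furthest below Nonabokra at 6 h (-0.87 ± 0.07, adjusted p = 1.8e-08), with every Pokkali array under every Nonabokra array. PDHE1-A, the alpha subunit of the first enzyme of pyruvate dehydrogenase, read 379, 391 and 362 in unstressed Pokkali, 958, 1012 and 934 after 3 h and 447, 496 and 498 after 6 h. Its Nonabokra arrays gave 27.8, 31.6 and 21.9 unstressed, 1314, 1152 and 1304 after 3 h and 488, 433 and 405 after 6 h, and those of IR29 9.67, 9.63 and 10.1 unstressed, 189, 156 and 169 after 3 h and 159, 178 and 159.9 after 6 h. Unstressed Pokkali exceeded IR29 at both salt times. At 6 h PDHE1-A was above IR29 in Pokkali (1.45 ± 0.08, adjusted p = 1.9e-11), and the arrays of Pokkali and Nonabokra overlapped (0.12 ± 0.08, adjusted p = 0.4).

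Several members known only by a locus number had leads of similar size. LOC4336355 was brighter in unstressed than in salted Pokkali, the opposite order to that in the other cultivars. It read 901, 957 and 883 in unstressed Pokkali, 340.0, 317 and 327 after 3 h and 339, 366 and 331 after 6 h. Nonabokra gave 11.7, 7.49 and 13.3 unstressed, 321, 318 and 315 after 3 h and 154, 179.5 and 181 after 6 h, and IR29 4.34, 5.05 and 6.13 unstressed, 92.04, 84.03 and 79.3 after 3 h and 135, 156 and 154 after 6 h. At 3 h the arrays of Pokkali and Nonabokra overlapped, and at 6 h Pokkali was above Nonabokra (0.95 ± 0.07, adjusted p = 4.4e-09) and IR29 (1.14 ± 0.07, adjusted p = 1.9e-10). LOC4324254 averaged 6941 ± 230.0, 12401 ± 158 and 2911 ± 77.6 in Pokkali at control, 3 h and 6 h, 270.1 ± 23.6, 13863 ± 987 and 2608 ± 142 in Nonabokra and 401 ± 25.5, 3944 ± 31.4 and 3018 ± 107 in IR29. In Pokkali it was dimmer at 6 h than in the control. LOC4349298 averaged 743 ± 39.8, 806 ± 37.1 and 323 ± 8.59 in Pokkali, 12.5 ± 0.12, 1083 ± 117 and 278 ± 32.2 in Nonabokra, and 12.99 ± 1.73, 245 ± 12.1 and 360.1 ± 10.4 in IR29. It has a second probe set whose lead in unstressed Pokkali was -0.34 over Nonabokra and -0.41 over IR29. LOC4349062, LOC4346387 and LOC4325912 were brighter at 3 h than in the control in Pokkali. LOC4349062 averaged 2328 ± 271, 13163 ± 1347 and 2146 ± 79.7 in Pokkali, against 119.6 ± 9.23, 11905 ± 257 and 2542 ± 212 in Nonabokra and 95.6 ± 6.19, 1086 ± 23.1 and 1747 ± 114 in IR29. LOC4346387 averaged 811 ± 101, 6559.6 ± 165 and 1144 ± 56.7 in Pokkali, 24.1 ± 7.27, 8025 ± 93.2 and 1186 ± 112 in Nonabokra and 11.4 ± 3.99, 469 ± 11.1 and 306 ± 52.7 in IR29. LOC4325912 averaged 612 ± 68.8, 2223 ± 71.6 and 673 ± 51.2 in Pokkali, 10.1 ± 1.51, 1805 ± 127 and 508 ± 17.9 in Nonabokra and 9.61 ± 1.90, 169 ± 3.53 and 242 ± 33.6 in IR29.

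Within Pokkali the members differed less between salt and control than in the other cultivars, a direction that the choice of genes favours. At 3 h 55 of the 104 were at least 1 above the own control, 47 within 1 and 2 at least 1 below (LOC4336355 and LOC9268106), with a median of 1.13. The 3 h difference was smaller than that of Nonabokra in 99 members and than that of IR29 in 97. At 6 h 36 were at least 1 above control, 63 within 1 and 5 at least 1 below, with a median of 0.57. Those below were LOC4336355, LOC4349298, LOC4324254, LOC4326740 and LOC4328018. Over all genes 5.67% were at least 1 above and 5.8% at least 1 below control in Pokkali at 3 h, and 4.62% above and 2.22% below at 6 h. At 6 h the median over members was 1.60 in Nonabokra, with 81 at least 1 above control, and 2.15 in IR29, with 97 (3.94% and 4% of all genes). All of these share control arrays with the choice of genes, so no test is given.

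The change between 3 h and 6 h within Pokkali uses no array that chose the genes. Most members were lower at 6 h: 66 of 104 fell, 16 rose and the other 22 did not pass the test, and the median difference was -0.50 (limma, adjusted p under 0.05 over 57194 probe sets). Of all 17905 genes 20.4% fell and 23.7% rose, with a median of -0.0047. Of 538 other genes at least 1 higher at 3 h in both Nonabokra and IR29, 62.6% fell and 13.4% rose, with a median of -0.40, and of the 19 left-out genes 52.6% fell and 15.8% rose. Arrays of 6 h and 3 h did not overlap in 71 members that were lower and 19 that were higher (35.4% and 29.4% of all genes).

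LOC4328018 fell most. It read 42.9, 31.00 and 41.5 at 6 h in Pokkali, against 1031, 1067 and 1054 at 3 h (-4.30 ± 0.12, adjusted p = 2.2e-15), and its control arrays read 245, 207 and 209.6. LOC4349062 (-2.60 ± 0.08, adjusted p = 1e-14), LOC4346387 (-2.50 ± 0.13, adjusted p = 1.1e-11), LOC4324254 (-2.09 ± 0.06, adjusted p = 1.3e-15) and LOC4338539 (-2.01 ± 0.09, adjusted p = 1.4e-12) followed. Among named members, ACO1, ABA8OX2, EGY3, C3H35, PSY3, PM19L1, R1C-Prx, PDHE1-A, PMEI8, Nrx2, MADS26 and LTI6B fell, HOX22, HOX24 and 4CL5 rose, and SAPK6, BZIP23 and LTP-2 did not pass.

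The 16 rises were led by LOC9268106, which was dimmer at 3 h than in the control. It read 351, 329.8 and 376 at 6 h, against 56.7, 59.05 and 56.7 at 3 h (2.32 ± 0.07, adjusted p = 9.1e-15), with 168, 169 and 165 at control. LOC4331521 read 798, 867 and 784 at 6 h, against 177, 188 and 175 at 3 h (2.08 ± 0.15, adjusted p = 2.1e-09). LOC4335167 (1.35 ± 0.10, adjusted p = 4.8e-09), LOC4326664 (1.16 ± 0.10, adjusted p = 1.7e-08) and LOC4332717 (1.09 ± 0.06, adjusted p = 6.4e-11) came next. With the replicate number as a block in a fit of the 2 groups alone, 10 members rose and 50 fell. The poly-A spikes were also lower at 6 h than at 3 h in Pokkali, as given above, and their part in these differences was not tested.

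**Figure D4:**
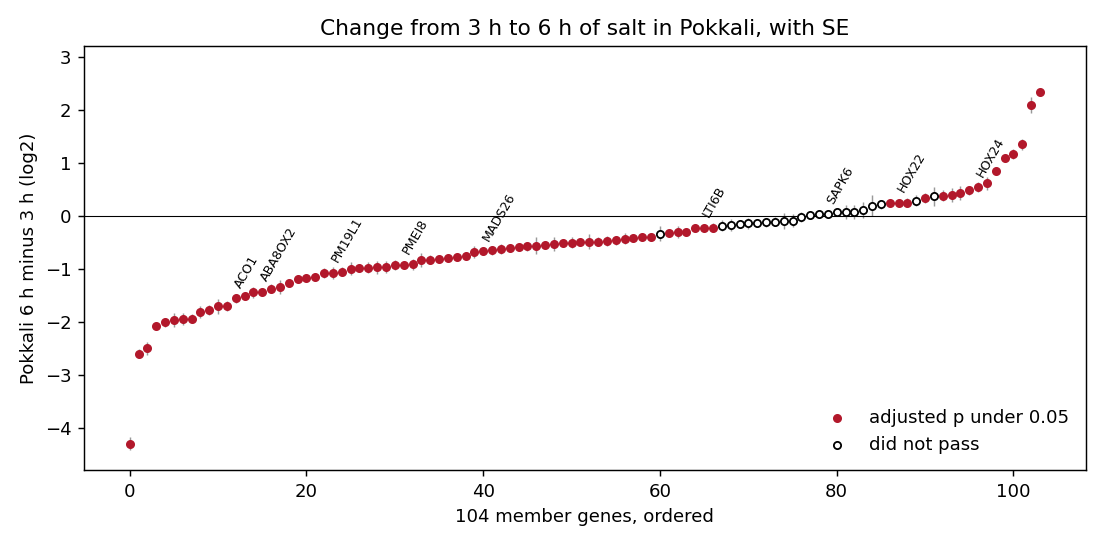
Difference between 6 h and 3 h of salt in Pokkali for each of the 104 members, ordered by size, in log2(intensity + 16), with the standard error from limma. Filled points passed at adjusted p under 0.05: 66 lie below 0 and 16 above.

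After 6 h of salt in all cultivars, on arrays that did not choose the genes, most members were higher in Pokkali. Against Nonabokra 72 of 104 were higher, 10 lower and the other 22 did not pass the test, and the median difference was 0.52. Of all genes 23.9% were higher and 14.7% lower. Against IR29 67 were higher, 10 lower and the other 27 did not pass, and the median was 0.51, where 26.9% of all genes were higher and 21.1% lower. The median over all genes was 0.0070 against Nonabokra and 0.0063 against IR29. Arrays did not overlap in 77 members that were higher and 12 that were lower than in Nonabokra (29.7% and 27.7% of all genes), and in 70 and 18 against IR29 (30.4% and 31.4%). With the replicate number as a block in a fit of the 2 groups alone, 42 were higher and 3 lower than in Nonabokra. The same kind of fit against IR29 gave 45 higher and 4 lower. The count lower than in Nonabokra was 6 without replicate 1 of Nonabokra or without replicate 1 or 3 of Pokkali. As a description, since arrays that chose the genes enter, the median difference from Nonabokra was 1.60 in controls and -0.01 at 3 h, and that from IR29 was 1.86 in controls and 1.11 at 3 h. At 3 h there was thus no median lead over Nonabokra. In the 538 other genes higher under salt, 47.4% were higher and 21.6% lower than in Nonabokra, and 44.4% and 28.8% than in IR29. In the 19 left-out genes, 73.7% were higher and 10.5% lower than in Nonabokra, and 84.2% higher and 5.26% lower than in IR29.

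At 6 h 47 members (45.2%) passed as higher in Pokkali than in both other cultivars, against 14% of all genes and 26.6% of the 538. Of the 19 left-out genes 63.2% did, a larger share than that of the members. The 47 members include PM19L1, ACO1, PSY3, HOX22, HOX24, 4CL5, LTP-2, Nrx2, SAPK6 and LTI6B. Of these, 8 were at least 2-fold higher than both (1.68% of all genes), among them ACO1, LTP-2, LOC4334503, LOC4332717, LOC4335167 and LOC4336815. LOC4334503 read 7383, 7271 and 6887 at 6 h in Pokkali, against 1824, 1820.4 and 1827 in Nonabokra and 762, 794 and 679 in IR29 (1.97 ± 0.09, adjusted p = 6.9e-13 and 3.24 ± 0.09, adjusted p = 1.3e-16). LOC4332717 read 1471, 1375 and 1598, against 507, 443 and 488 in Nonabokra and 272, 245 and 253 in IR29. Neither gene overlapped between cultivars. A single member, LOC4324430, was lower than both (6.73% of all genes), at 161, 183 and 189 in Pokkali, 236, 251 and 239 in Nonabokra and 292, 241 and 243 in IR29.

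Against Nonabokra, ACO1 led, followed by LOC4331521 (3.94 ± 0.15, adjusted p = 6.5e-14), HOX24, LOC4349141 (2.62 ± 0.07, adjusted p = 7.6e-17) and LOC4325395 (2.53 ± 0.13, adjusted p = 6.4e-12). LOC4331521 read 798, 867 and 784 in Pokkali, 40.3, 37.03 and 37.8 in Nonabokra and 529.6, 459 and 393 in IR29 at 6 h, so that Nonabokra alone stood low. The largest deficits were those of EGY3, LOC4335330 (-0.74 ± 0.11, adjusted p = 4.6e-05), LOC4330257 (-0.68 ± 0.10, adjusted p = 2.2e-05), ABA8OX2 and LOC4324430 (-0.42 ± 0.07, adjusted p = 0.00016). Against IR29 the lead was largest in ACO1, LTP-2, LOC4334503, LOC4336815 (2.52 ± 0.13, adjusted p = 3.1e-12) and LOC4332717 (2.46 ± 0.06, adjusted p = 4.2e-17). The lowest relative to IR29 was LOC4334379, at 439, 494 and 427 in Pokkali and 1303, 976 and 982 in IR29 (-1.22 ± 0.12, adjusted p = 9.8e-08). Without replicate 1 of both Nonabokra and IR29 at 6 h, 76 members were higher and 6 lower than in Nonabokra, and 69 higher and 8 lower than in IR29.

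**Figure D5:**
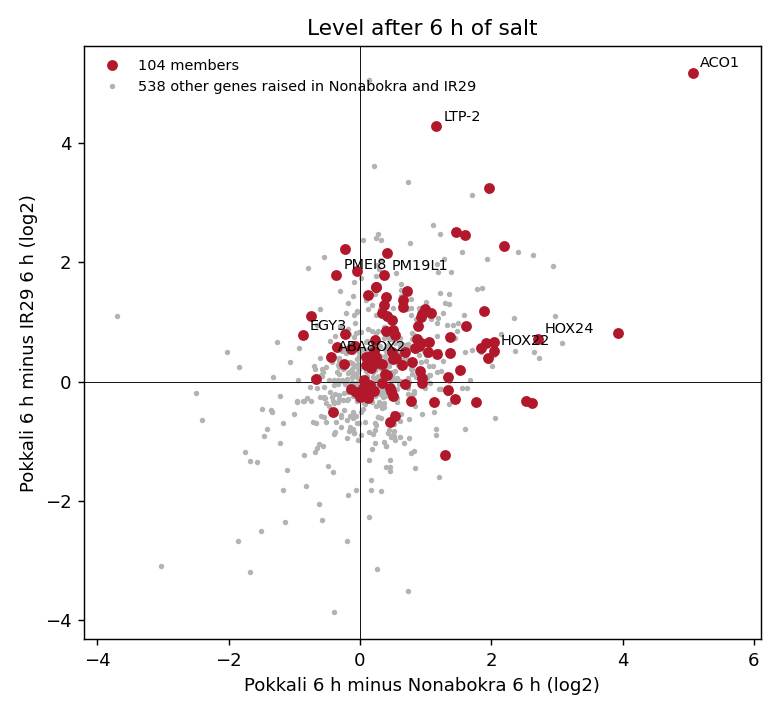
Difference of Pokkali from Nonabokra (x axis) and from IR29 (y axis) at 6 h of salt, in log2(intensity + 16), for the 104 members (red) and 538 other genes at least 1 higher after 3 h of salt in Nonabokra and IR29 (grey). ACO1 lies at 5.07 and 5.18, LTP-2 at 1.17 and 4.28 and HOX24 at 2.71 and 0.72.

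Between Nonabokra and IR29 at 6 h, 35 members were higher in Nonabokra, 44 lower and the other 25 did not pass, and the median was -0.10 (21.7% and 22.6% of all genes were higher and lower). Of the 538 other genes 34.6% were higher and 40.3% lower, and of the 19 left-out genes 47.4% and 21.1%. Arrays did not overlap in 37 members that were higher and 47 that were lower (23.2% and 25.6% of all genes). LTP-2 (3.12 ± 0.12, adjusted p = 1.2e-13), LOC4339527 (2.45 ± 0.08, adjusted p = 3.4e-15) and PMEI8 (2.16 ± 0.05, adjusted p = 5.3e-18) were highest in Nonabokra relative to IR29. LOC4331521 (-3.12 ± 0.15, adjusted p = 2.3e-12), LOC4349141 (-2.97 ± 0.07, adjusted p = 1e-17) and LOC4325395 (-2.86 ± 0.13, adjusted p = 8e-13) were lowest. Between 3 h and 6 h the median difference over members was -1.04 in Nonabokra and 0.02 in IR29. Both 3 h groups chose the genes, so these 2 values are a description.

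Genes of the abscisic acid pathway were also read from lists, of which some genes had no probe set with their name. The lists include the members SAPK6, BZIP23, ABA8OX2, HOX22 and HOX24, which were chosen for a high level in unstressed Pokkali. All 10 SnRK2 kinases, SAPK1 to SAPK10, were measured. At 6 h 6 of them were higher in Pokkali than in Nonabokra and none lower, and 7 were higher and 1 lower than in IR29, with medians of 0.28 and 0.40. Of all genes 23.9% were higher and 14.7% lower than in Nonabokra, and 26.9% and 21.1% than in IR29. SAPK2 averaged 3454 ± 192 in Pokkali at 6 h, 1832 ± 59.8 in Nonabokra and 1547 ± 111 in IR29 (0.91 ± 0.06, adjusted p = 1e-10 and 1.15 ± 0.06, adjusted p = 1.6e-12). SAPK6 is the single one of these 10 kinases among the members, and it is counted as higher in both comparisons. SAPK9 averaged 2648 ± 74.6, 197 ± 22.97 and 1154 ± 26.7 in Pokkali at control, 3 h and 6 h and rose between 3 h and 6 h (2.46 ± 0.06, adjusted p = 9.4e-17).

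The receptor PYL11 averaged 3152 ± 51.3 in Pokkali at 6 h, 1524 ± 79.6 in Nonabokra and 1424 ± 172 in IR29, higher than both (1.04 ± 0.06, adjusted p = 5.5e-11 and 1.14 ± 0.06, adjusted p = 8.5e-12). ZEP, zeaxanthin epoxidase, the 1 measured of 7 listed synthesis genes, averaged 3117 ± 222 in Pokkali at 6 h, 1233 ± 194 in Nonabokra and 1383 ± 377 in IR29 (1.34 ± 0.14, adjusted p = 4.1e-07 and 1.20 ± 0.14, adjusted p = 1.3e-06). ABA8OX1, the other measured hydroxylase, was no member: it averaged 385 ± 6.30, 2445 ± 84.7 and 3578 ± 177 in Pokkali at control, 3 h and 6 h, 393 ± 37.5, 1761 ± 153 and 2583 ± 139 in Nonabokra and 332 ± 4.35, 233 ± 14.9 and 317 ± 11.6 in IR29. Its unstressed means lay within a narrow range in the 3 cultivars, and under salt it was brighter in Pokkali and Nonabokra and not in IR29. At 6 h Pokkali exceeded IR29 by 3.43 ± 0.07, adjusted p = 4.6e-19. Of 10 listed bZIP factors 2 were measured, BZIP23 and TRAB1, and TRAB1 had a difference of 0.14 ± 0.11, adjusted p = 0.44 from Nonabokra and 0.31 ± 0.11, adjusted p = 0.042 from IR29 at 6 h. Of 4 listed galactinol and raffinose synthases RFS alone was measured, above Nonabokra (1.16 ± 0.06, adjusted p = 2.2e-11) and below IR29 (-0.89 ± 0.06, adjusted p = 9.1e-10). All 3 listed homeodomain factors, HOX6, HOX22 and HOX24, were higher in Pokkali than in both other cultivars at 6 h, as were 14% of all genes. HOX22 and HOX24 are members, and HOX6 lay just outside the limit, at 0.994.

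Of the families left out by definition, 7 of 8 measured protein phosphatase 2C genes of the pathway were higher in Pokkali than in Nonabokra at 6 h, 7 of 8 than in IR29, and none was lower (23.9% and 26.9% of all genes were higher, with all-gene shares lower of 14.7% and 21.1%). PP2C30 averaged 5549 ± 419 in Pokkali, 1318 ± 109 in Nonabokra and 3007 ± 251 in IR29. Without salt, 6 of the 8 phosphatases were at least 1 higher in Pokkali than in Nonabokra, and 6 than in IR29. PP2C30 and other genes of both families in this paragraph are among the 19 left-out genes, which met the same limits as the members. Of the 8 measured late embryogenesis abundant and dehydrin genes, 3 were higher and 3 lower than in Nonabokra, and 4 higher and 2 lower than in IR29. From 3 h to 6 h in Pokkali none of these 8 rose and 6 fell, where 23.7% of all genes rose and 20.4% fell. Of the 8 phosphatases 3 rose and 4 fell. The difference between the families was not tested.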

How the data were processed

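RNA of 27 seedling samples was hybridised to Affymetrix rice arrays. Levels are the authors' deposited intensities on a linear scale, and the submitters' processing notes name GCOS; summarisation and normalization are not given in the sources used here. No further scaling was applied. Of 57381 probe sets, 187 control probe sets were left out. Of the 57194 tested, 22436 map to 1 gene in the platform annotation, 95 to several and 34663 to none. The brightest by mean over all 27 arrays represented each of 17905 genes. Differences of log2(intensity + 16) were fitted with limma 3.58.1 in R 4.3.3, with 1 mean per group over all 27 arrays (18 residual degrees of freedom) and Benjamini-Hochberg adjustment over 57194 probe sets. The fit was tested on simulated data. The number of arrays limits precision.

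The members and lists were chosen with earlier results of these data known. Only contrasts free of the arrays that chose the members were tested. Named are members with a name, the 20 largest unstressed leads, the 5 largest changes each way per test whose arrays did not overlap, the 3 genes on either side of the limits and up to 4 passing genes per list and test; further genes were chosen after their values were seen. Replicate numbers recur in all groups. Deviations of same-numbered arrays correlated at 0.72, 0.42 and 0.40 for Nonabokra and IR29 at 6 h, and at -0.14 to 0.11 in the other tests. This relation is taken from the values alone. For Nonabokra and IR29 at 6 h, 2 of 6 arrays correlated best with the array of their own number. Replicate 1 stands apart in both of these groups. Promoter motifs were not analysed here.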

Additional observations from a re-analysis of the deposited data

Results flagged for a closer look

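In 17 of 52 named members (32.7%) all 6 h arrays lay on one side of all 3 h arrays in Pokkali and on the opposite side in another cultivar. The share was 28.8% over all 104 members, 16.9% over 538 other genes at least 1 higher at 3 h in Nonabokra and IR29, and 9.82% over all genes. Some named members were named for the size of their change between 3 h and 6 h in Pokkali. The differences between cultivars were not tested, and the 3 h arrays of Nonabokra and IR29 also chose the genes.

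HOX22, HOX24 and 5 locus-number genes were higher at 6 h than at 3 h in Pokkali and lower in Nonabokra, in differences of log2 means. By the same criterion this direction held in 12.5% of the 104 members and 12.3% of the 538 other genes. It held in 3.73% of all genes. HOX22 had 0.25 in Pokkali and -2.16 in Nonabokra, and HOX24 0.54 and -3.10. LOC4331521 had 2.08 and -3.21, and LOC4335167 1.35 and -0.94. LOC4349141 had 0.84 and -1.43, LOC4328369 0.28 and -2.51, and LOC9268106 2.32 and -0.14.

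The others were lower at 6 h than at 3 h in Pokkali and higher in IR29. This direction held in 15.4% of the 104 members, 2.42% of the 538 other genes and 2.23% of all genes. EGY3 had -1.19 in Pokkali and 0.41 in IR29. LOC4349062 had -2.60 and 0.68, LOC4338539 -2.01 and 0.39, LOC4331751 -1.97 and 0.74, and LOC4325912 -1.70 and 0.47. LOC4345287 had -1.45 and 1.22, LOC4324024 -1.38 and 0.97, and LOC4349298 -1.28 and 0.53. LOC4332597 had -0.92 and 1.34, and LOC4341691 -0.84 and 0.32. Replicate 1 of both Nonabokra and IR29 at 6 h stands apart from its group.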

How the results depend on the processing

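The number of members was 56 with a constant of 64, 175 with a limit of 0.8 and 43 with a limit of 1.5, between 92 and 142 under the other settings, and 101 to 107 without any 1 array. Medians of the 4 tests kept their sign under every setting. With the replicate block in a fit of the 2 groups alone, which has fewer arrays, all counts were smaller. From 3 h to 6 h in Pokkali 10 members rose and 50 fell. At 6 h 42 were higher and 3 lower in Pokkali than in Nonabokra, and 45 higher and 4 lower than in IR29. Between Nonabokra and IR29, 32 were higher and 36 lower in Nonabokra. With the block over all arrays no count moved by over 1.5 times. Lower than in Nonabokra were 6 at an adjusted p under 0.01 and 6 without both arrays that stand apart, an alternative chosen after seeing the data, and lower than in IR29 were 6 in a fit of the 2 groups alone. Without any 1 array of the compared groups, 11 to 15 rose and 62 to 65 fell in Pokkali, 68 to 75 were higher and 6 to 8 lower than in Nonabokra, 66 to 69 higher and 8 to 12 lower than in IR29, and 32 to 38 higher and 42 to 44 lower in Nonabokra than in IR29. Of 168 calls of named members 18 did not pass without some array. With all probe sets of each gene averaged, LOC4349298 reversed to -0.0424 (Pokkali against Nonabokra) and C3H35 to -0.0773 (Nonabokra against IR29). For these changes the cause was not tested. Detection calls were not used, so dim levels are uncertain.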
